A study of Mus musculus with 12 samples.

Results

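The genes described here encode the proteins of the cytosolic ribosome (symbols starting with Rpl or Rps) and of the mitochondrial ribosome (Mrpl or Mrps). They were taken from the deposited liver expression table by symbol alone, leaving out the Rps6k kinases, and 30 of its 3799 genes met the rule. Of these, 13 were cytosolic (11 Rpl and 2 Rps) and 17 mitochondrial (10 Mrpl and 7 Mrps). GENCODE M21 lists 92 cytosolic and 78 mitochondrial protein-coding genes with such names, so the table, a selection made by the authors, holds a minority of both ribosomes. Its name marks it as a set of differentially expressed genes. Shares of genes tested and adjusted p-values below therefore refer to this selection, not to all expressed genes. Not every member is a core ribosomal protein. Rpl7l1 is an Rpl7-like factor of pre-ribosomes, Rps27l is an Rps27-like protein induced by p53, Rpl9-ps6 is a copy of Rpl9 named as a pseudogene, and Mrps18a, in spite of its name, sits in the large mitochondrial subunit.

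Livers came from male C57BL/6J mice aged 8 weeks at the first injection, with 3 libraries in each of 4 groups. The DOX groups received 10 mg/kg doxorubicin, a DNA-damaging chemotherapy drug used here to accelerate aging, by intraperitoneal injection on day 0 and day 7, while mice of the Saline group, called vehicle in the sample labels, were injected with saline. Starting on day 2, doxorubicin-treated mice were dosed into the stomach every 2 days with vehicle (DOX), K35 (DOX + K35) or its analog K27 (DOX + K27), both compounds at 50 mg/kg, until the livers were collected on day 20. Expression was deposited as 1 value per gene and library and was read as FPKM, which scales fragments to transcript length and library size. The table lists libraries A1 to A3 (Saline), B1, B3 and B4 (DOX), C1, C2 and C4 (DOX + K35) and D1 to D3 (DOX + K27), whereas the labels list B1 to B3 and C1 to C3, so B3, B4 and C4 were placed by group only. The table holds no read counts, so depth is unknown and each error below rests on the spread between libraries.

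The cytosolic ribosome translates nuclear-encoded mRNA and is built in the nucleolus from ribosomal RNA and proteins made in near-equal amounts. The mitochondrial ribosome has its own proteins, also encoded in the nucleus and imported, and makes the few proteins of the respiratory chain that mitochondrial DNA encodes. Messenger RNAs of cytosolic ribosomal proteins start with a pyrimidine tract (the 5′ terminal oligopyrimidine element) through which growth signals control their translation, and free Rpl5, together with Rpl11, binds Mdm2 and stabilises p53 when ribosome assembly is disturbed.

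Several libraries stood apart before any comparison was made. Genes encoded by mitochondrial DNA, 12 of which were among the 20 with the highest level in the table, took 48.2% to 61.9% of the summed FPKM in Saline and 62.2% to 83.3% in DOX. With K35 the share was 37.9% to 48.7% and with K27 it was 50% to 68.0%, so values scaled to the library total carry this difference. B4 had the highest share (83.3%) and the lowest summed FPKM of both classes. C4 had the highest cytosolic sum. Of the 7 hepatocyte markers, Cyp3a11, Apoa1, Cps1 and Tat were in the table, and none was under 132.4 FPKM in any library. In DOX + K35 vs. DOX, Cyp3a11 (1.68, SE 0.47), Cps1 (1.77, SE 0.39) and Tat (0.95, SE 0.32) rose as well, and Apoa1 had -0.45 (SE 0.29). The 4 globin genes that mark erythroid cells summed to 820.6 to 1135 FPKM in DOX and 62.2 to 595.9 in DOX + K35, and the 4 Kupffer cell markers to 6.48 to 20.1 and 23.2 to 42.5. In bulk liver, fewer cells of a type and less RNA per cell cannot be told apart.

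Cytosolic members were expressed above mitochondrial ones in every library. Averaged over the 12 libraries, cytosolic members ran from 13.8 FPKM for Rpl7l1 to 283.5 FPKM for Rpl4, which lines the peptide exit tunnel, and mitochondrial members from 2.51 FPKM for Mrps25 to 47.7 FPKM for Mrpl14. On the log2(FPKM + 1) scale the cytosolic mean exceeded the mitochondrial mean by 2.34 ± 0.01 (SD, n = 3) in Saline and 2.12 ± 0.37 in DOX, by 2.66 ± 0.44 with K35 and by 2.22 ± 0.18 with K27. A factor common to a library leaves this difference unchanged apart from the pseudocount. The Saline libraries agreed closely, with differences of 2.35, 2.34 and 2.33. Among the DOX libraries the difference was 2.45 in B1, 2.19 in B3 and 1.73 in B4. In DOX + K35 it was 2.44 in C1, 2.38 in C2 and 3.16 in C4. In DOX + K27 it was 2.43 in D1, 2.15 in D2 and 2.09 in D3. The DOX and DOX + K27 libraries overlapped each other and both other groups, while every DOX + K35 library lay above every Saline library, C2 by the least and C4 by the most.

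**Figure D1:**
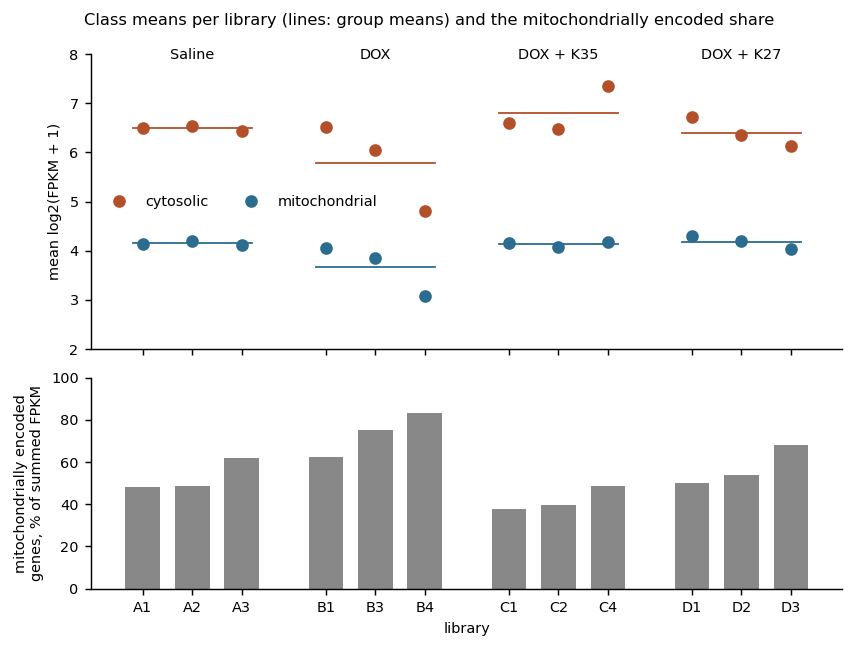
Mean log2(FPKM + 1) of the 13 cytosolic (brown) and 17 mitochondrial (blue) members in each library, with group means as lines, above the share of summed FPKM taken by mitochondrially encoded genes (bars, %). B4 is lowest for both classes (4.82 and 3.09) and has the highest share (83.3%), and C4 is highest for the cytosolic class (7.34) but not for the mitochondrial one (4.18).

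Promoter sequences near the start sites are described for members that rose in DOX + K35 vs. DOX and for members that did not. RefSeq promoters (GRCm38.p6, 250 bases before to 50 after the start) were found for 24 members and none for Rpl3, Rpl8, Rpl17, Rpl36, Rpl9-ps6 and Mrpl54. The windows below run from 40 bases before to 20 after the annotated start. They are examples and do not show how often a feature occurs in either set. Rpl4, Mrpl44 and Mrps12 are among the genes that rose in DOX + K35 vs. DOX, and Rpl38, Mrps33 and Mrpl33 are not. Capitals mark a C followed by at least 5 further pyrimidines that begins within 15 bases of the start (the first 4 sequences) or the Ets motif CCGGAAG (the other two).
Rpl4 (chr9:64173347-64173406, plus strand): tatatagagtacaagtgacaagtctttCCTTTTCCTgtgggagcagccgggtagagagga
Mrpl44 (chr1:79775978-79776037, plus strand): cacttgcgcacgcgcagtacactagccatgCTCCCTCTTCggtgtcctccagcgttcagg
Rpl38 (chr11:114668540-114668599, plus strand): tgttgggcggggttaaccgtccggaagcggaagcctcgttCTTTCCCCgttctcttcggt
Mrps33 (chr6:39810917-39810976, minus strand): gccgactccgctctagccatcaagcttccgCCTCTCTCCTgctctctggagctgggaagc
Mrps12 (chr7:28741802-28741861, minus strand): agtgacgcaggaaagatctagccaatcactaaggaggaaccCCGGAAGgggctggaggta
Mrpl33 (chr5:31613911-31613970, plus strand): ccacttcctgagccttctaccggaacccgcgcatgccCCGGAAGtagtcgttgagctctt

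Such a pyrimidine run was found in 3 of 8 cytosolic promoters (37.5%) and 7 of 16 mitochondrial ones (43.8%), against 29.8% of the genes tested that have a promoter and 29.0% of all genes with one. By response it was in 6 of 14 members that rose in DOX + K35 vs. DOX (42.9%) and 4 of 10 that did not pass the test (40%). CCGGAAG on either strand was in 9 of 16 mitochondrial promoters (56.2%) and 2 of 8 cytosolic ones (25.0%), against 19.5% of the genes tested, and in 28.6% of the members that rose and 70.0% of the others. AAGATGG, which can share its first letters with the end of CCGGAAG, was in 1 cytosolic (12.5%) and 3 mitochondrial promoters (18.8%), against 7.91% of the genes tested. GCATGCG was in 2 promoters of each class (25.0% and 12.5%, against 7.02%), and TATAAA in 1 of each (12.5% and 6.25%, against 9.81%), also on either strand. The 4 motifs were searched over the whole 300 bases, and over all 32851 windows of this length they occurred in 8.86%, 6.34%, 3.58% and 13.6%.

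DOX vs. Saline asked what doxorubicin did to these genes. The log2 fold change was below 0 for 9 of 13 cytosolic and 13 of 17 mitochondrial members, but no member passed the threshold (limma on log2(FPKM + 1), Benjamini-Hochberg adjusted p under 0.05), where 0.181% of the 3317 genes tested did. At an unadjusted p under 0.05 there were 17 members, 9 cytosolic and 8 mitochondrial, all lower in DOX, against 47.4% of genes tested in either direction. Their adjusted p ran from 0.0612 to 0.0953. The median log2 fold change was -1.10 over the cytosolic members, -0.39 over the mitochondrial members and -0.34 over all genes tested, and with the 20 highest genes left out of the scaling these became -0.52, 0.04 and 0.09. Without DOX replicate 1 (B1), the DOX library nearest to Saline, those 17 members all passed, lower in DOX, where 41.9% of genes tested did.

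Among the large-subunit proteins, Rpl4 stood at 317, 310 and 261 FPKM in Saline and at 255, 180 and 59.3 FPKM in B1, B3 and B4 (log2 fold change -1.07, SE 0.46, limma adjusted p = 0.0856). All DOX libraries were below all Saline libraries, which held for 5 members (Rpl4, Rpl8, Rps4x, Mrpl43 and Mrps9) and for 23.0% of genes tested, while 0 members and 12.3% of genes tested lay wholly above Saline. Rpl3, which lies at the peptidyl transferase centre, had 168, 165 and 120 FPKM in Saline and 130, 66.2 and 22.3 in DOX, the most negative member difference (-1.35, SE 0.51, limma adjusted p = 0.0662). B1 lay within the Saline range and B4 far below it. Rpl5, the 5S rRNA partner that also binds Mdm2, had 92.5, 82.1 and 64.4 FPKM in Saline against 71.0, 34.5 and 12.6 in DOX. Rplp0, the base of the stalk that recruits elongation factors, had 261, 253 and 205 against 207, 129 and 50.5, so for both genes B1 alone overlapped Saline.

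The small-subunit protein Rps4x, encoded on the X chromosome, had 201, 190 and 162 FPKM in Saline and 154, 99.2 and 27.5 in DOX. Rps27l showed no such drop, with 120, 125 and 146 FPKM in Saline and 157, 160 and 106 in DOX (0.09, SE 0.30, limma adjusted p = 0.815). B4 was again the lowest DOX library. Rpl17, Rpl36 and Rpl38, all of the large subunit, had higher means in DOX, and none passed the threshold. Rpl38, a protein known for its part in translating Hox mRNAs, had 15.9, 23.4 and 42.1 FPKM in Saline and 32.5, 40.6 and 34.1 in DOX (0.49, SE 0.41, limma adjusted p = 0.34), all within the Saline range.

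Mitochondrial members split in the same manner. Mrpl44, an RNase III-like protein of the large subunit, had 10.5, 12.1 and 6.09 FPKM in Saline and 6.97, 3.5 and 1.16 in DOX, with the smallest p of all members (-1.26, SE 0.40, unadjusted p = 0.00722, limma adjusted p = 0.0612). Mrpl9 followed at -1.03 (SE 0.35, limma adjusted p = 0.0612), and Mrps9 at -0.78 (SE 0.28, limma adjusted p = 0.0623) had the smallest p of the small subunit. Mrps12, of the decoding centre, had 20.1, 19.2 and 11.2 FPKM in Saline and 13.6, 8.57 and 2.80 in DOX. For Mrpl44, Mrpl9 and Mrps12 the Saline library A3 lay below B1. Without it (Saline replicate 3) 6 mitochondrial members passed, lower in DOX (Mrpl9, Mrpl12, Mrpl44, Mrps12, Mrps18a and Mrps23), where 31.3% of genes tested did. Mrpl18, which is related to the 5S rRNA-binding protein Rpl5, had 32.6, 34.9 and 44.3 FPKM in Saline and 37.0, 54.2 and 42.5 in DOX, with the groups overlapping. The 9 mitochondrial members with an unadjusted p over 0.05 lay between -0.39 for Mrps25 and 0.27 for Mrpl54.

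**Figure D2:**
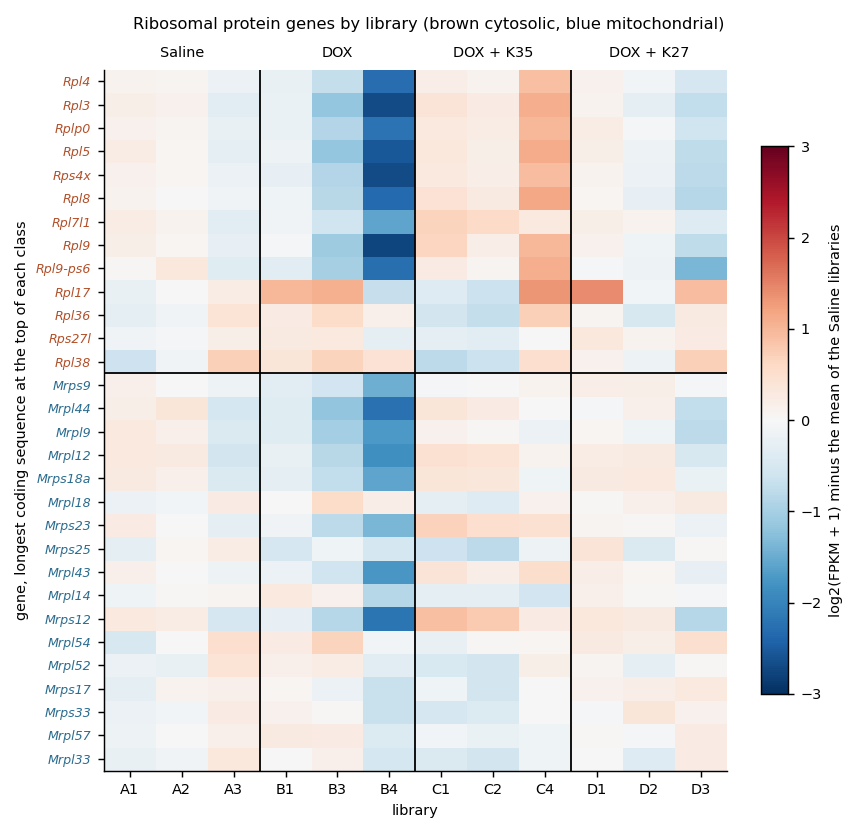
log2(FPKM + 1) of each member minus its mean over the Saline libraries (colour), for 12 libraries (columns) and 30 genes (rows, cytosolic above mitochondrial, longest coding sequence first in each class). Longer genes are low in B4 and B3 and the long cytosolic genes high in C4, while Rpl36, Rpl38, Rps27l and Mrpl18 are not low in B3.

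DOX + K35 vs. DOX asked what K35 changed in doxorubicin-treated liver. Here 17 members rose and none fell (limma adjusted p under 0.05), where 46.0% of genes tested rose and 10.7% fell. They were 9 of 13 cytosolic members (Rpl3, Rpl4, Rpl5, Rpl7l1, Rpl8, Rpl9, Rpl9-ps6, Rplp0 and Rps4x) and 8 of 17 mitochondrial members (Mrpl9, Mrpl12, Mrpl43, Mrpl44, Mrps9, Mrps12, Mrps18a and Mrps23). In all 17 the DOX + K35 libraries lay wholly above the DOX libraries, as they did for 44.3% of genes tested. The median log2 fold change was 1.60 over the cytosolic members, 0.04 over the mitochondrial members and 0.46 over all genes tested. Each class was made of a part that rose and a part with differences between -0.79 and 0.04.

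Rpl3 rose most, from 130, 66.2 and 22.3 FPKM in B1, B3 and B4 to 196, 178 and 319 in C1, C2 and C4 (3.80-fold on the log2(FPKM + 1) scale, log2 fold change 1.93, SE 0.51, limma adjusted p = 0.00747). Every DOX + K35 library was above B1 and above the highest Saline library. Rpl9, also of the large subunit, went from 93.2, 46.0 and 13.6 FPKM to 152, 112 and 193 (1.90, SE 0.53, limma adjusted p = 0.00885), and Rpl5 from 71.0, 34.5 and 12.6 to 98.0, 89.6 and 173 (1.83, SE 0.50, limma adjusted p = 0.00848). Rpl8, which adjoins the peptidyl transferase centre, went from 179, 111 and 38.0 FPKM to 263, 235 and 441 (1.71, SE 0.48). Rpl4 rose from 255, 180 and 59.3 FPKM to 341, 318 and 552 (1.48, SE 0.46, limma adjusted p = 0.0144). For each of these genes C4 was the highest of the 12 libraries and B4 the lowest.

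Rplp0 rose by 1.60 (SE 0.46, limma adjusted p = 0.00957) and the assembly-related Rpl7l1 by 1.26 (SE 0.34, limma adjusted p = 0.00794). Rpl7l1 differed from the core proteins in that C4, at 16.7 FPKM, was below C1 (21.9) and C2 (20.4). In the small subunit Rps4x rose from 154, 99.2 and 27.5 FPKM to 225, 212 and 351 (1.75, SE 0.51, limma adjusted p = 0.0103), whereas Rps27l had 157, 160 and 106 against 106, 102 and 130 FPKM (-0.30, SE 0.30, limma adjusted p = 0.393). The groups were separate for Rps4x and overlapped for Rps27l. Whether these 2 small-subunit genes changed differently was not tested.

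Rpl17, Rpl36 and Rpl38 did not pass the test. Rpl36 had 178, 221 and 166 FPKM in DOX and 101, 91.1 and 248 in DOX + K35 (-0.50, SE 0.40, limma adjusted p = 0.289), and Rpl38 had 32.5, 40.6 and 34.1 against 14.3, 15.8 and 36.2 (-0.79, SE 0.41, limma adjusted p = 0.11). For both, C1 and C2 lay below every DOX library and C4 did not, and without C4 both passed as lower, where 16.8% of genes tested did. Rpl17, a protein by the exit tunnel, had 108, 114 and 32.6 FPKM in DOX and 41.0, 33.8 and 135 in DOX + K35 (-0.36, SE 0.57, limma adjusted p = 0.588), so B4 and C4 stood apart from their groups in opposite directions. Its spread between libraries was the widest of all members.

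Mrps12 rose most among mitochondrial members, from 13.6, 8.57 and 2.80 FPKM to 31.1, 29.1 and 19.4 (1.74, SE 0.46, limma adjusted p = 0.00736). Mrpl44 went from 6.97, 3.5 and 1.16 to 12.1, 11.1 and 9.21 (1.46, SE 0.40, limma adjusted p = 0.00851), and Mrps23 from 7.52, 4.29 and 2.54 to 13.8, 12 and 11.5 (1.30, SE 0.29), with the smallest adjusted p of all members (limma, 0.00561). In these 3 genes, as in Rpl7l1, C4 was the lowest DOX + K35 library. Mrpl12, the stalk protein that also binds the mitochondrial RNA polymerase, rose by 1.30 (SE 0.40) and Mrpl43 by 1.21 (SE 0.34). Mrps18a rose by 1.06 (SE 0.34), Mrpl9 by 1.02 (SE 0.35) and Mrps9 by 0.81 (SE 0.28), the smallest rise that passed. Mrpl18 had 37.0, 54.2 and 42.5 FPKM in DOX and 30.3, 28.1 and 40.8 in DOX + K35 (-0.42, SE 0.28, limma adjusted p = 0.214), and the other 8 that did not pass lay between -0.32 and 0.04.

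**Figure D3:**
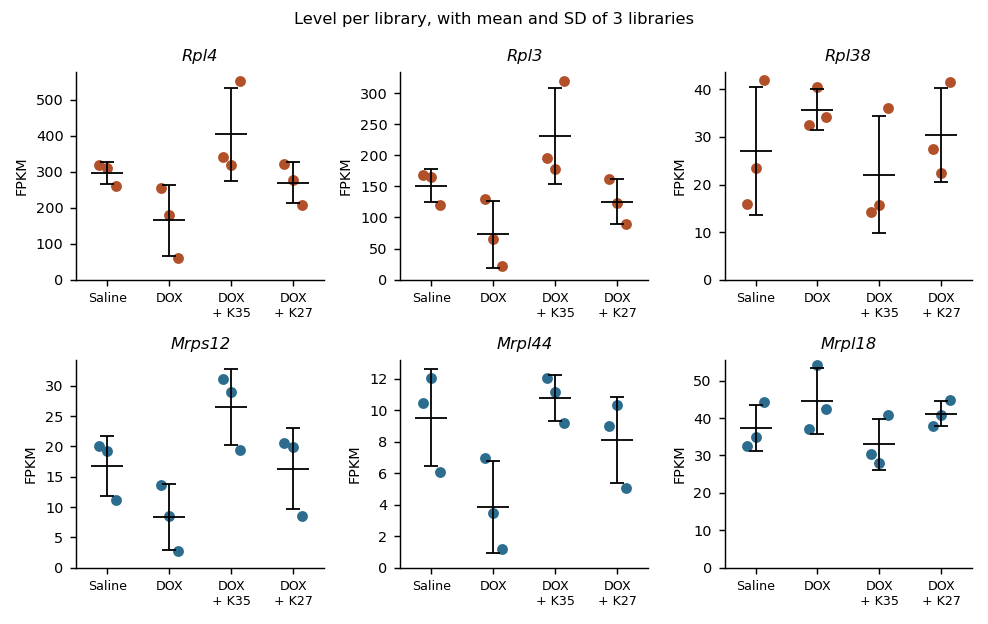
FPKM of 3 cytosolic (brown) and 3 mitochondrial (blue) members in each library, with the group mean and SD of 3 libraries (black). Rpl4, Rpl3, Mrps12 and Mrpl44 have DOX + K35 libraries wholly above the DOX libraries, and Rpl38 and Mrpl18 have overlapping groups in that comparison.

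Under 4 other scalings, nearly the same cytosolic members and fewer mitochondrial members rose. When libraries were scaled by median ratios, by quantiles, without the 20 highest genes or without the mitochondrially encoded genes, the median of all genes tested moved from 0.46 to -0.01, 0.12, -0.13 and 0.23. The cytosolic members that rose numbered 9, 8, 9 and 9, with Rpl4 lost under quantile normalization, and their class median stayed positive at 0.98, 0.79, 0.88 and 1.29. The mitochondrial members that rose numbered 5, 5, 4 and 6, their class median turned negative (-0.55, -0.26, -0.63 and -0.25), and 8, 8, 9 and 1 passed as lower. Of all genes tested, 37.8%, 38.0%, 27.5% and 42.5% rose under these scalings and 41.2%, 31.9%, 43.5% and 27.2% fell. Mrpl43, Mrpl44, Mrps12 and Mrps23 rose under all 4. Under the first 3 scalings Rpl36, Rpl38 and Rps27l also passed as lower. With the trend on transcript length removed, 9 mitochondrial members rose and 2 passed as lower. With the GC trend removed, 6 rose and 6 passed as lower. In these fits 2182 and 1928 of all genes passed in either direction. Without B4, the same 9 cytosolic members rose, their median being 1.04, while 4 mitochondrial members rose and Mrpl14 passed as lower, where 37.8% of genes tested rose and 11.8% fell. Without C1 or C2 5 mitochondrial members rose, where 40.2% and 40.9% of genes tested did. The share of mitochondrially encoded genes and the hepatocyte, globin and Kupffer cell markers given above moved with the groups, and their part in these changes was not tested.

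DOX + K27 vs. DOX asked the same of K27, against the same DOX libraries. No member passed (limma adjusted p under 0.05), where 0.0603% of genes tested did. At an unadjusted p under 0.05 there were 7 mitochondrial and 0 cytosolic members, all higher. This compares with 29.3% of genes tested in either direction. The median log2 fold change was 0.75 over the cytosolic members, 0.48 over the mitochondrial members and 0.36 over all genes tested. Without B4 these were 0.28, 0.31 and 0.16, so the order of the classes turned, and under median-ratio scaling, quantile normalization and without the 20 highest genes the cytosolic median was 0.31, 0.31 and 0.30. Rpl3 had 162, 124 and 89.6 FPKM in DOX + K27 (1.06, SE 0.51, limma adjusted p = 0.178), Rpl7l1 15.3, 14.7 and 10.2 (0.72, SE 0.34, limma adjusted p = 0.171) and Rps4x 196, 164 and 107 (0.99, SE 0.51, limma adjusted p = 0.194). In each, D3 lay below B1, so the groups overlapped.

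Mrps9, the mitochondrial counterpart of a bacterial small-subunit protein, had 14.2, 14.1 and 12 FPKM in DOX + K27 against 9.70, 7.94 and 3.84 in DOX (0.89, SE 0.28, unadjusted p = 0.00645, limma adjusted p = 0.155), with separate groups. The other two with separate groups were Mrps18a (0.99, SE 0.34) and Mrps17 (0.48, SE 0.27), 3 members in all, against 15.9% of genes tested. Mrpl44 was higher by 1.05 (SE 0.40, limma adjusted p = 0.155) but D3, at 5.07 FPKM, was below B1. Rps27l and Mrpl14 differed by 0.12 (SE 0.30) and 0.20 (SE 0.32). Without DOX replicate 1, 15 members passed as higher, where 32.3% of genes tested did. They were 7 cytosolic (Rpl3, Rpl4, Rpl5, Rpl7l1, Rpl9, Rplp0 and Rps4x) and 8 mitochondrial (Mrpl9, Mrpl12, Mrpl43, Mrpl44, Mrps9, Mrps12, Mrps18a and Mrps23). The K35 and K27 comparisons share the DOX libraries, so a like pattern in both is not independent.

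DOX + K35 vs. DOX + K27 compared the compounds directly at the same dose and day. No member passed (limma adjusted p under 0.05), where 2.11% of genes tested did, and 0 had an unadjusted p under 0.05, against 28.4%. The intervals were wide. Rpl9-ps6 was higher by 1.00 in DOX + K35 (95% interval -0.0056 to 2.01, limma adjusted p = 0.176), Rpl8 by 0.96 (-0.075 to 1.997, limma adjusted p = 0.193) and Rpl3 by 0.87 (-0.22 to 1.96, limma adjusted p = 0.232). Mrps25 had -0.52 (-1.04 to 0.0011, limma adjusted p = 0.176), at 1.60, 1.33 and 2.58 FPKM against 4.20, 1.98 and 3.09. Mrps9 differed by -0.08 (-0.69 to 0.52) and Mrps18a by 0.07 (-0.65 to 0.79). These intervals do not show that the compounds acted alike.

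The libraries of the 2 compounds did not overlap for 9 members that were higher in DOX + K35 (7 cytosolic and 2 mitochondrial, against 30.6% of genes tested) and for 5 that were lower (1 cytosolic and 4 mitochondrial, against 18.9%). The class medians were 0.64 and -0.20, beside 0.09 over all genes tested. With the replicate number as a block, which leaves out C4 and the DOX libraries, 9 members passed, 5 higher and 4 lower, where 25.2% and 18.5% of genes tested did. The labels do not say that same-numbered livers were paired. Rpl3 (0.43, SE 0.13), Rpl7l1 (0.48, SE 0.10), Rpl9 (0.48, SE 0.15), Mrps12 (0.61, SE 0.13) and Mrps23 (0.51, SE 0.11) were then higher in DOX + K35. Rpl17 (-1.17, SE 0.37), Rps27l (-0.49, SE 0.12), Mrpl18 (-0.39, SE 0.12) and Mrps33 (-0.55, SE 0.15) were lower, with limma adjusted p from 0.0188 to 0.0479 over the 9. In the same libraries without the block, 1 member passed (Rpl17, lower), where 11.1% of genes tested passed as lower.

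**Figure D4:**
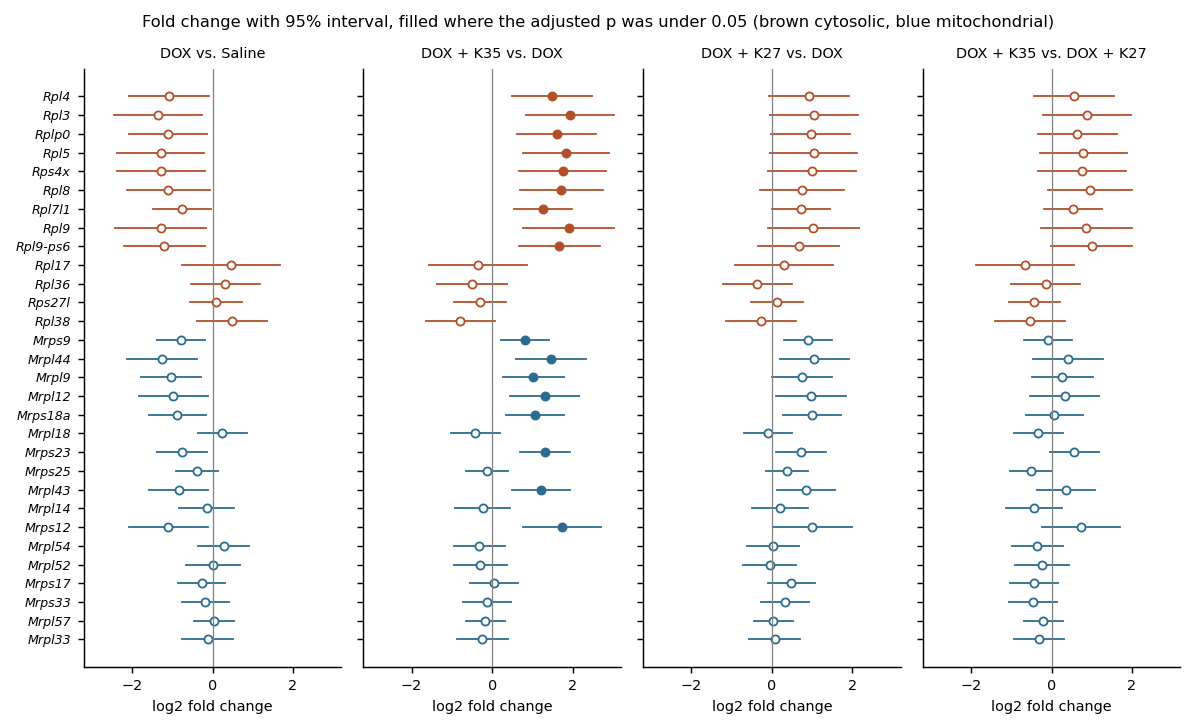
log2 fold change (points) and 95% interval (lines) of the 30 members in the 4 comparisons, cytosolic in brown and mitochondrial in blue, ordered by coding length within each class, filled where the adjusted p was under 0.05. All 17 filled points are in DOX + K35 vs. DOX, above 0, although 8 of them are mitochondrial genes of which 4 to 6 rose under the other 4 scalings.

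The cytosolic members that rose all had longer coding sequences than those that did not, and in the mitochondrial class the lengths overlapped. The median coding length of the 30 members, from the GENCODE M21 transcripts, was 549 bases. In DOX + K35 vs. DOX, 14 of 15 members above it rose (93.3%), and 3 of 15 at or below it (20%), where 50.8% and 27.5% of all genes tested on the same sides of 549 bases rose. The exception above it was Rpl17 (555 bases), and those below it were Mrps12 (420), Mrpl43 (480) and Mrps23 (534). The split was chosen after the values had been seen and is a description. Across the 30 members the Pearson r of the log2 fold change with log2 coding length was -0.74, 0.74, 0.77 and 0.64. The 4 comparisons are in the order described above. Across 3127 genes tested the r was 0.15, -0.03, -0.13 and 0.07. Within the classes it was 0.84 (13 cytosolic) and 0.57 (17 mitochondrial) in DOX + K35 vs. DOX. These points share their libraries, and genes are not independent replicates.

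Whole transcript length, also taken as log2, was a weaker guide, with an r of 0.21 across the members in DOX + K35 vs. DOX. Mrps25 and Mrps17 have transcripts of 6073 and 5061 bases around coding sequences of 516 and 363 bases, and neither passed. The mean log2 level of the longer minus the shorter members was 1.52, 1.35 and 0.75 in A1, A2 and A3, and 1.00, 0.37 and -0.26 in B1, B3 and B4. It was 1.68, 1.63 and 1.74 in C1, C2 and C4, and 1.27, 1.20 and 0.56 in D1, D2 and D3. It was lowest in the libraries with the highest mitochondrially encoded share within Saline, DOX and DOX + K27 (A3, B4 and D3). In DOX + K35, C4 had both the highest difference and the highest share. The part of that share in this pattern was not tested.

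**Figure D5:**
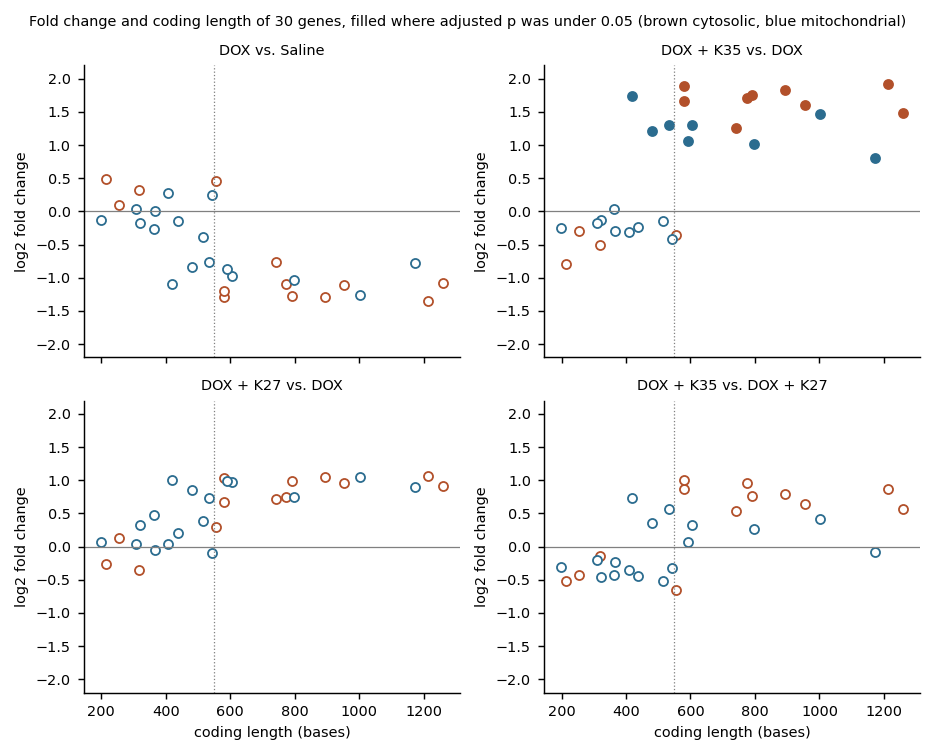
log2 fold change of each member against coding length (bases) in the 4 comparisons, cytosolic brown and mitochondrial blue, filled where the adjusted p was under 0.05, with the median length of 549 bases dotted. With K35 against DOX, 14 of the 15 genes to the right of the dotted line are filled and 3 of the 15 at or left of it.

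The members that rose varied together across all libraries. Rpl4 was the cytosolic member with the highest mean, and of all genes tested the 5 with the highest Pearson r to it over the 12 libraries were Rps4x (0.997), Rplp0 (0.994), Rpl3 (0.990), Rpl5 (0.989) and Rpl9 (0.986). Mrpl43 was at rank 7 with 0.984. Rpl38 and Mrpl18 had r of -0.34 and -0.40. Over pairs of members that both rose in DOX + K35 vs. DOX the median r was 0.93 (136 pairs), over pairs in which neither did 0.66 (78 pairs), and over mixed pairs 0.03 (221 pairs). All of these share the group differences, library scaling and B4. The pairs were sorted by a result from these same libraries, so their r adds no separate evidence.

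Other genes of the same processes, from lists written from general knowledge with earlier results of these data known, mostly rose with K35. Of 54 genes listed as translation factors or as mRNAs with a terminal pyrimidine tract, 20 were in the table, not split by kind. Of these 20, 19 rose in the comparison with DOX (median 1.45, where 46.0% of genes tested rose). Among these Eef2, which moves the ribosome along the mRNA, rose by 1.97 (SE 0.49) and Eef1a1, which delivers aminoacyl-tRNA, by 1.63 (SE 0.45). Eif6, which keeps the subunits apart during assembly, rose by 1.78 (SE 0.38), and the exception was Eif5b (-0.10, SE 0.23). Of 28 ribosome biogenesis genes tested 23 rose (median 0.96), including Bop1 (1.38, SE 0.25), Dkc1 (1.13, SE 0.21) and Tsr1 (1.20, SE 0.25), while the RNA polymerase I subunit Polr1a had 0.37 (SE 0.21) and Nop56 -0.12 (SE 0.29).

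Of 18 genes for mitochondrial translation and ribosome assembly 14 rose (median 1.09), where 46.0% of genes tested rose. The elongation factors Gfm1 (1.84, SE 0.43) and Tufm (1.63, SE 0.45) and the transcription factor Tfam (1.05, SE 0.32) were among them, and Mettl17 (-0.27, SE 0.21) and Lars2 (-0.64, SE 0.30) were not. Under the 4 scalings named above, 17 to 19 translation factors, 14 to 21 biogenesis genes and 10 to 14 mitochondrial translation genes rose, while up to 1, 5 and 4 passed as lower. Of all genes tested, 27.5% to 42.5% rose and 27.2% to 43.5% fell under these scalings. Gadd45gip1, the 1 mitochondrial ribosomal protein of another name in the table, had -0.14 (SE 0.26), and passed as lower under median-ratio scaling (-0.73), quantile normalization (-0.82) and without the 20 highest genes (-0.82). In DOX vs. Saline and DOX + K27 vs. DOX no gene of these 4 lists passed (limma adjusted p under 0.05). At an unadjusted p under 0.05 there were 17, 11, 14 and 0 genes in DOX vs. Saline, in the order given. This compares with 47.4% of genes tested in either direction. For DOX + K27 vs. DOX there were 10, 11, 9 and 0 genes, against 29.3% in either direction. Those of DOX vs. Saline were lower in DOX apart from the biogenesis genes Nop56 (0.71, SE 0.29) and Ttf1 (0.39, SE 0.17), and those of DOX + K27 vs. DOX were all higher. In DOX + K35 vs. DOX + K27 none passed either. At an unadjusted p under 0.05 there were 3, 14, 4 and 0 genes, against 28.4% of genes tested in either direction. Of these genes 1 mitochondrial translation gene was lower and the others higher with K35.

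All 30 members are annotated as protein coding on GRCm38. Of those whose library values are plotted, Rpl4 spans chr9:64173375-64178666 and Mrpl44 chr1:79776018-79781445 on the plus strand, as does Rpl38 at chr11:114668524-114672331, while Rpl3 (chr15:80077791-80091868), Mrps12 (chr7:28739641-28741820) and Mrpl18 (chr17:12911349-12916345) are on the minus strand. Several members share sequence or position with other genes. Transcripts of Rpl9 and Rpl9-ps6 were identical at 691 of 692 aligned bases, so reads could be divided between them and the value of Rpl9-ps6 is uncertain. Genes named as copies number 11 for Rpl17 and 9 each for Rpl36 and Rpl9 in GENCODE M21, and small nucleolar RNA genes lie within Rpl3, Rpl4, Rpl5 and Rpl17. Mrpl14 overlaps Tmem63b, Mrpl18 overlaps Tcp1, Mrpl43 overlaps Twnk and Mrpl44 overlaps Wdfy1 on the other strand, and the preparation as described does not mark strand. Whether those overlaps add to the values was not tested.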

How the data were processed

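Poly-A-selected liver RNA of 12 libraries was sequenced by the authors, who deposited 1 table of length-scaled values without naming the unit, treated here as FPKM. The submitters' processing notes name HISAT2, DESeq2, edgeR and GRCm38 without giving their roles, and versions are not given in the sources used here. Groups came from the sample labels, and no column belonged to a sample outside the series. The members and gene lists were chosen with earlier results of these data known.

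After a log2(FPKM + 1) transformation, the 3317 genes averaging 1 FPKM or more (all 30 members among them) were fitted with limma 3.58.1 (lmFit, eBayes with trend; R 4.3.3) in a one-way layout of 4 groups, and p-values were Benjamini-Hochberg adjusted over all genes tested. The design allowed for counts or FPKM, and alternatives that need counts were not run. The labels do not say that libraries of a group are separate mice, so p-values test group differences against the spread between libraries. The fit was tested on simulated data.

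Named members were, in each comparison and symbol class, up to 3 with the smallest unadjusted p, members of a written list (Rpl5, Rplp0, Rps4x, Rps27l, Mrpl12 and Mrps12 among those present), members with a paralog among the others, and list genes past the threshold. Any other member or list gene was named after its values were seen. Positions and lengths came from GENCODE M21 on GRCm38, using the principal transcript, and promoters from RefSeq. No protein sequence was used here. Marker lists for lymphocytes, neutrophils, cholangiocytes and proliferation had no gene in the table and were not analysed here. Of the stellate and endothelial list only Pecam1 was present, at 0.545 to 3.09 FPKM in DOX and 3.06 to 3.43 FPKM in DOX + K35.

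Same-numbered livers were from mice of different treatments. Their deviations from the group means correlated at 0.109 to 0.474, each over 0.1, so a fit with the number as a block was added. Libraries with different numbers were not compared in this way, so these correlations cannot show a pairing. The main fit used group alone, and the labels do not say that same-numbered livers were paired. Analyses used Python 3.11.15, numpy 2.4.6, pandas 2.3.3, biopython 1.88 and matplotlib 3.10.9.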

Additional observations from a re-analysis of the deposited data

Results flagged for a closer look

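Rps27l and Mrpl14 were singled out because, on the log2(FPKM + 1) scale, every DOX + K35 library lay below the DOX mean and every DOX + K27 library above it. For Rps27l this depends on the scale, since D2 at 138.5 FPKM was below the DOX mean of 140.8 FPKM. Rps27l had a log2 fold change of -0.30 (SE 0.30) in DOX + K35 vs. DOX and 0.12 (SE 0.30) in DOX + K27 vs. DOX, and the direct difference between the compounds was -0.43 (SE 0.30, limma adjusted p = 0.293). Mrpl14 had -0.24 (SE 0.32) and 0.20 (SE 0.32), and a direct difference of -0.44 (SE 0.32, limma adjusted p = 0.308). For both, the rule that singled them out already means that the libraries of the 2 compounds do not overlap. Neither difference passed the threshold in the fit of all 12 libraries. With the replicate number as a block Rps27l passed (-0.49, SE 0.12, limma adjusted p = 0.0284) and Mrpl14 did not. These fits used the same values as the rule.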

How the results depend on the processing

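Of the class medians, class differences and counts of members recomputed under the alternatives, 269 stayed within 1.5 times the count or 1 SD of the value and 33 did not. Counts were compared as totals without direction. The 17 members higher in DOX + K35 vs. DOX thus counted as kept under median-ratio scaling, where 14 were higher and 11 lower. Where no value shows the cause, the cause was not tested.

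The count of members past the threshold in DOX vs. Saline was 0, and became 1 under median-ratio scaling, quantile normalization and removal of the GC trend (Mrpl44, lower), 4 without the 20 highest genes (Rps27l, Mrpl18, Mrpl54 and Mrpl57, higher). Over all genes the count went from 6 to 1000, 649, 757 and 1126 in these fits. The members' count was 0 to 17 when each library was left out, and that of all genes 2 to 1474. In DOX + K35 vs. DOX the members' count was 17, beside 1883 of all genes. At an adjusted p under 0.01 the members' count was 11. No share of all genes is given at that threshold, so 11 cannot be read as high or low for this table. At the main threshold, leaving out each library gave 14 to 19 members in this comparison, beside 1517 to 2105 of all genes. Of these members 1 was lower without B4 and 2 were lower without C4. In DOX + K27 vs. DOX the leave-outs gave 0 to 15 members, beside 0 to 1097 of all genes. For DOX + K35 vs. DOX + K27 the members' count was 0, and 1 with the trend on transcript length removed (Mrps23, higher), where 224 of all genes passed. It was 9 with the replicate block (1450 of all genes). In the libraries of that fit with group alone, an alternative chosen after seeing the data, it was 1 (673 of all genes). No paired analysis was possible for the other comparisons because the libraries share 1 number.

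The cytosolic median in DOX vs. Saline was -0.49 under quantile normalization and -0.52 without the 20 highest genes, and -1.55 to -0.48 over the leave-outs. The mitochondrial median was -0.070 under median-ratio scaling and 0.036 without the 20 highest genes. In DOX + K35 vs. DOX the cytosolic median was 0.98 under median-ratio scaling, 0.79 under quantile normalization, 0.88 without the 20 highest genes and 0.99 with the GC trend removed, and 1.04 to 2.05 over the leave-outs. The mitochondrial median was -0.55, -0.26 and -0.63 under the first 3, -0.25 without mitochondrially encoded genes and 0.41 with the length trend removed. In DOX + K27 vs. DOX it was 0.038, 0.15 and 0.033 under the same 3 scalings and 0.086 with the GC trend removed. In DOX + K35 vs. DOX + K27 it was 0.21 with the length trend removed. The cytosolic minus mitochondrial level in Saline was 2.42 with a pseudocount of 0.1 FPKM and 2.30 under quantile normalization.

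Single members changed sign past the threshold in DOX + K35 vs. DOX. Mrpl33 and Mrpl52 became 0.41 and 0.50 with the length trend removed, and Mrps17 became -0.55 under median-ratio scaling, -0.63 under quantile normalization, -0.64 without the 20 highest genes and -0.70 with the GC trend removed. The files hold no counts, so what depth limits is unknown.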
